A study of Mus musculus with 64 samples.

Results

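Ly-6C was followed across T cells, innate lymphoid cells and myeloid cells of the inflamed mouse colon, as the counts of a sequence-tagged antibody on the surface of single cells. It was 1 of 11 antibodies in the panel and was chosen by its row name in the antibody tables, which 9 of the 64 samples of the series carried here. All 9 came from the colon of SCID mice, a strain without T or B lymphocytes of its own, and all are labelled as having received CD45RBhi T cells, naive T cells whose transfer causes colitis in hosts of this kind. There were 8 untreated libraries, 1 each from weeks 0 to 7 at intervals of 7 days, and 1 week 7 library from mice that received anti-IL-12p40 from day 10, which binds a subunit common to the cytokines IL-12 and IL-23. Colons of 3 animals were pooled for each library, EpCAM-/CD45+ cells of the lamina propria were sorted, and about 16000 of them were loaded. The week 0 library carries the transfer label too, but held 1 CD3+CD4+ cell among 16735. With 1 pool per week and per treatment, the spread between pools of the same group is unknown, and cells of 1 pool are not replicates. Of 131917 barcodes, 130442 passed the count filter.

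Ly-6C is a small glycolipid-anchored surface protein of the Ly-6 family. In blood and inflamed tissue it is carried at a high level by monocytes newly arrived from the bone marrow, at a lower level by neutrophils, and by part of the T cells, and it is lost as monocytes mature into tissue macrophages. In the mouse genome it is encoded by Ly6c1 (chr15:75044018-75048920) and Ly6c2 (chr15:75108161-75112066), protein-coding neighbours on chromosome 15 of GRCm38.p6. Which product the antibody binds was not given in the sources used here, so the counts are described as Ly-6C without distinction.

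Per library there were 11534 to 21229 barcodes with 12914066 to 28723452 antibody counts, and medians of 576.5 to 1566 counts per cell. More barcodes than loaded cells were found in 3 libraries, and pairs of libraries shared 30 to 110 barcode sequences. The Ly-6C antibody took 5.59% of all antibody counts in the treated library and 41.6% in the week 2 library. Cells were placed in 10 phenotypes by thresholds on 7 other proteins. Ly-6C has no threshold in any gate, but it enters each through the cell's mean on the centred log ratio, the scale of the gates (the natural log of the count plus 1 less the cell's mean over the 11 antibodies). Lymphoid cells lacked CD11b, CD11c, CD64 and Ly-6G, and were CD3+CD4+ (the phenotype of helper T cells), CD3+CD4-, CD3-CD4+CD90.2+ or CD3-CD4-CD90.2+ (the phenotype of innate lymphoid cells). Among CD3- cells, CD11b with Ly-6G is the phenotype of neutrophils, CD11b with CD64, an Fc receptor, that of monocytes and macrophages, and CD11c without CD64 that of dendritic cells. A phenotype was used in a library where it had at least 50 cells. Cells in no phenotype were 2.04% to 9.71% of a library.

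T cells and innate lymphoid cells carried like numbers of raw Ly-6C counts within each library, and these differed between libraries. In the untreated libraries Ly-6C made up a median of 8.24% to 20.2% of a lymphoid cell's counts. Over weeks 0 to 7 the median of all lymphoid cells was 95, 64, 157, 253, 145, 128, 177 and 102 counts, and it was 60 in the treated library. The week 3 library was the highest and the treated library the lowest. In CD3+CD4+ cells the medians of weeks 1 to 7 were 64, 159, 252, 145, 128, 175 and 102 counts. In CD3-CD4-CD90.2+ cells of the same weeks they were 64, 154, 254.5, 144, 133, 180 and 97 counts. The phenotypes followed each other from library to library, as the plot of medians by library shows.

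**Figure D1:**
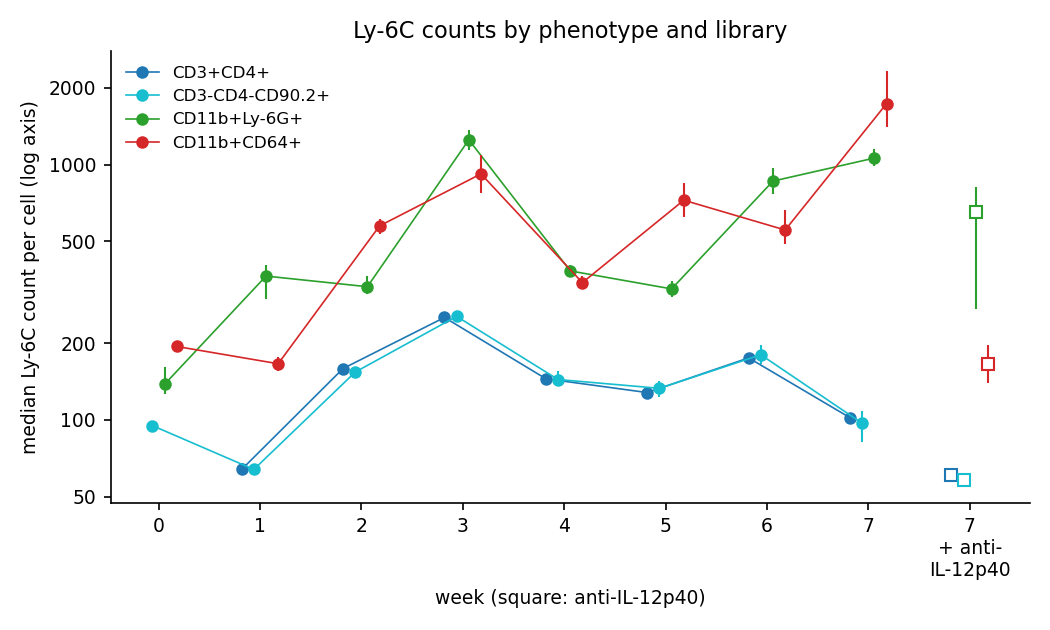
Median Ly-6C count per cell (log axis) against week for 4 phenotypes, with order-statistic 95% intervals of the median for counting error only. Circles are untreated libraries and squares the week 7 library with anti-IL-12p40. The CD3+CD4+ and CD3-CD4-CD90.2+ points lie on each other between 58 and 254.5 counts, and the CD11b+Ly-6G+ and CD11b+CD64+ points lie above them in every library.

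On the natural log of the count plus 1, CD3+CD4+ cells exceeded CD3-CD4-CD90.2+ cells by 0.0018 ± 0.031 (SD, n = 7 libraries), with CD3+CD4+ cells higher in 3 of 7 (exact sign-flip permutation p = 0.844, two-sided). On the centred log ratio, the planned scale, the same difference was -0.51 ± 0.0713, with CD3+CD4+ cells lower in 7 of 7 (exact sign-flip permutation p = 0.0156, adjusted p = 0.0309). CD3+CD4+ cells had median counts of all antibodies of 950 at week 1 and 1318 at week 7, against 531 and 692.5 in CD3-CD4-CD90.2+ cells. The spread of counts among lymphoid cells was narrow, with a 90th percentile 2.46 to 3.70 times the 10th in the untreated libraries. Among these cells the Ly-6C count had a rank correlation of 0.336 to 0.553 with the cell's counts of all other antibodies, and the Ly-6G count, on cells called Ly-6G-, one of 0.187 to 0.498. The background of the myeloid antibodies on the same lymphoid cells also moved between libraries, with medians of 3 to 10 counts for CD11b, 2 to 11 for CD11c, 1 to 9 for CD64 and 1 to 14 for Ly-6G. Ly-6G and CD11c were highest on lymphoid cells at week 3, where Ly-6C was highest too, but both were low at week 2 (1 and 4 counts), where Ly-6C stood at 157. The part of antibody background in the lymphoid Ly-6C level was not tested.

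The lymphoid level was compared with week. In lymphoid cells the raw level had a rank correlation of 0.333 with week (exact permutation p = 0.428, adjusted p = 0.571; Pearson's r was 0.304, exact p = 0.468). None of the 3 Ly-6C trends of lymphoid cells passed an adjusted p of 0.05 on raw counts (0% of the 12 trends of the antibodies outside the gates were called), and none had an unadjusted exact permutation p below 0.05. On the centred log ratio 0 of 3 passed as well (0% of 12 called), and 1 had an unadjusted p below 0.05. That was the trend of all lymphoid cells, which ran the other way on this scale, with a rank correlation of -0.81 (exact permutation p = 0.0218, adjusted p = 0.168). It was -0.43 in CD3+CD4+ cells (exact permutation p = 0.354) and -0.17 in CD3-CD4-CD90.2+ cells (exact permutation p = 0.703). The mix of lymphoid cells changed too, with 486 CD3+CD4+ cells of 5992 at week 1 and 6813 of 10413 at week 2. Its part in the trend of all lymphoid cells was not tested.

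Because of the moving lymphoid level, each phenotype was set against the median of the lymphoid cells of its own library. CD3+CD4+ cells make up most of that reference from week 2 and CD3-CD4-CD90.2+ cells at weeks 0 and 1, so their own ratios near 1 are partly fixed by the choice. CD3+CD4+ cells had ratios of 0.989 to 1.01, CD3-CD4-CD90.2+ cells 0.951 to 1.04 and CD3-CD4+CD90.2+ cells 0.975 to 1.06. The rarer CD3+CD4- cells had ratios of 0.832 to 1.16 in the 5 untreated libraries with enough of them. Within CD3+CD4+ cells the 90th percentile of Ly-6C was 2.46 to 3.65 times the 10th, and within CD3-CD4-CD90.2+ cells 2.46 to 3.67 times, a narrower spread than in any CD11b+ phenotype but CD11b+CD11c+CD64- (2.98 to 14.9).

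CD11b+Ly-6G+ cells carried more Ly-6C counts than lymphoid cells in all 8 untreated libraries. Their medians over weeks 0 to 7 were 138, 366, 332.5, 1251, 383.5, 326, 862 and 1061 counts. Divided by the lymphoid median these were 1.45, 5.72, 2.12, 4.94, 2.64, 2.55, 4.87 and 10.4. Week 0 was the lowest and week 7 the highest, and the weeks between did not follow an order. The mean difference from lymphoid cells was 1.28 ± 0.636 on the natural log of counts (SD, n = 8), higher in 8 of 8 (exact sign-flip permutation p = 0.00781, adjusted p = 0.0523). On the centred log ratio it was 0.309 ± 0.611, higher in 6 of 8 (exact sign-flip permutation p = 0.188, adjusted p = 0.235). These cells also had more counts of all antibodies, with medians of 2029 at week 0 and 3656 at week 7. Lymphoid cells had 1140 and 1308. The part of total counts in the difference was not tested.

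CD11b+CD64+ cells, which lack Ly-6G, stood at a like distance above lymphoid cells in raw counts. Their medians over weeks 0 to 7 were 194, 166, 575.5, 920, 345, 725.5, 554.5 and 1734 counts. The ratios to the lymphoid median were 2.04, 2.59, 3.67, 3.64, 2.38, 5.67, 3.13 and 17, with week 7 apart from the rest. The mean difference from lymphoid cells was 1.35 ± 0.674 on the natural log of counts (SD, n = 8), higher in 8 of 8 (exact sign-flip permutation p = 0.00781, adjusted p = 0.0523). On the centred log ratio it was 0.611 ± 0.884, higher in 6 of 8 (exact sign-flip permutation p = 0.0938, adjusted p = 0.129). Their median counts of all antibodies were 2055.5 at week 0 and 2687.5 at week 7, above those of lymphoid cells (1140 and 1308). Neither myeloid phenotype was above the other throughout: CD11b+Ly-6G+ cells were higher in 4 of 8 libraries, with a mean difference of -0.067 ± 0.557 (exact sign-flip permutation p = 0.719).

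CD90.2 was not used to define the myeloid phenotypes, and part of their cells carried it. At week 0, 1667 of 3220 CD11b+CD64+ cells were below the CD90.2 threshold, against 158 of 160 at week 7. Without the CD90.2+ cells the ratios of weeks 0 and 7 became 1.96 and 17.5 in CD11b+CD64+ cells, and 1.44 and 10.2 in CD11b+Ly-6G+ cells.

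CD64- cells with CD11b divided by CD11c. CD11b+CD11c-CD64- cells had medians of 123, 93, 402, 635, 177, 186.5 and 3625.5 counts in weeks 0 to 6, and ratios of 1.29, 1.45, 2.56, 2.51, 1.22, 1.46 and 20.5. Week 6 stood apart from the other 6 libraries, and the median ratio was 1.46. CD11b+CD11c+CD64- cells, a phenotype that includes dendritic cells, stayed near the lymphoid level, with ratios from 0.993 to 1.46 and a median of 1.11. CD11b-CD11c+CD64- cells had ratios of 0.984 to 1.23 (median 1.02) and CD11b-CD64+ cells 0.952 to 1.39 (median 1.10). In order of the geometric mean ratio, CD11b+CD64+ (3.87) and CD11b+Ly-6G+ cells (3.62) came before CD11b+CD11c-CD64- cells (2.39). Then came CD11b+CD11c+CD64- (1.16), CD11b-CD64+ (1.10), CD11b-CD11c+CD64- (1.04), CD3-CD4+CD90.2+ (1.03), CD3+CD4+ (1.00), CD3-CD4-CD90.2+ (0.998) and CD3+CD4- cells (0.975). Neighbours in this order overlapped in their ranges over libraries.

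**Figure D2:**
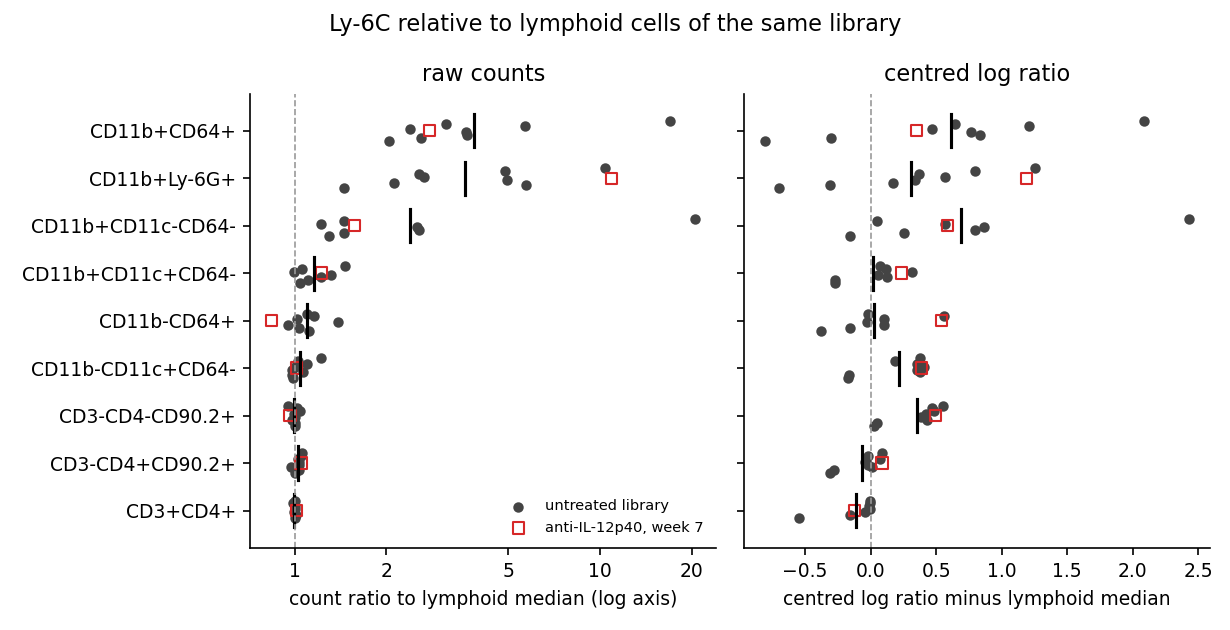
Ly-6C in 9 phenotypes relative to the lymphoid median of the same library, as a ratio of raw counts (left, log axis) and as a difference of centred log ratios (right). Dots are untreated libraries, bars their geometric mean (left) or mean (right), and squares the treated library. CD3+CD4+ and CD3-CD4-CD90.2+ cells lie on 1 at left, while at right CD3-CD4-CD90.2+ cells lie above 0 and CD11b+CD64+ cells reach from -0.81 to 2.08.

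The scale set which of these differences passed the test. The planned test used the centred log ratio and called 12 of 46 Ly-6C pairs of phenotypes, against 52.2% of the 184 pairs of the 4 antibodies outside the gates (KLRG1, CD127, CD103 and Ly-6C), a smaller share for Ly-6C than for all. All 12 had an adjusted p of 0.0309 by exact sign-flip permutation. They include CD3+CD4+ cells against CD11b+Ly-6G+ cells (-0.57 ± 0.356) and against CD11b+CD64+ cells (-0.93 ± 0.607), with CD3+CD4+ cells lower in 7 of 7 libraries in each. Other called pairs put CD3-CD4-CD90.2+ cells above CD11b+CD11c+CD64- cells (0.302 ± 0.0928) and above CD11b-CD11c+CD64- cells (0.138 ± 0.098). CD3-CD4-CD90.2+ cells were not called against CD11b+Ly-6G+ cells (0.0411 ± 0.438, higher in 5 of 8) or CD11b+CD64+ cells (-0.26 ± 0.707, higher in 2 of 8). None of the 12 set a CD11b+ phenotype against all lymphoid cells. CD3-CD4-CD90.2+ cells were 0.35 ± 0.201 above lymphoid cells on this scale (higher in 8 of 8), and CD3+CD4+ cells differed from them by -0.11 ± 0.2 (lower in 7 of 7). On raw counts these differences were -0.0019 and -0.00038. What brings about the difference between the scales was not tested. CD11b+CD64+ cells at week 0 differed from lymphoid cells by -0.81 on the centred log ratio while their median count was 194 against 95.

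On raw counts 0 of 46 Ly-6C pairs passed the adjusted threshold of the exact sign-flip test (0% of 184 called), and 27 had an unadjusted p below 0.05. Of these, 21 had the smallest adjusted p, 0.0523. With 8 libraries an exact sign-flip p cannot fall below 0.00781, and with 7 not below 0.0156.

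Ly-6C was not uniform within CD3-CD11b+Ly-6G- cells, the union of the CD64+ and CD64- phenotypes above. A 2-component mixture was fitted to the log counts of each library as a description. The mean of the lower component lay at 1.30 to 1.70 times the lymphoid median in all 9 libraries. That of the upper component lay at 9.18 to 38.4 times it. Ashman's D, the distance between components in units of their spread, was 3.10 (week 2) to 4.40 (treated library) over the 9 libraries. The number of components was set in advance, so these means need not be peaks of the distribution. By bins of the log count, week 3 had 8.40% of cells at 5.8 to 6.0. It had 1.97% at 7.6 to 7.8 and 4.46% at 9.0 to 9.2. The dip was shallower at week 2, with 6.78% at 5.2 to 5.4, 3.98% at 6.8 to 7.0 and 4.78% at 7.4 to 7.6. The upper component held 7.82%, 28.6%, 44.5%, 39.9%, 38.7%, 40.6%, 43.0% and 52.3% of these cells over weeks 0 to 7. It held 14.3% in the treated library, where its mean lay at 2302 counts, within the 1331 to 5149 counts of the untreated libraries. Over cells sampled from each library and pooled, Ashman's D was 1.75 on the centred log ratio. On that scale and set of cells the antibody did not separate into positive and negative, so no cell was called Ly-6C+.

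**Figure D3:**
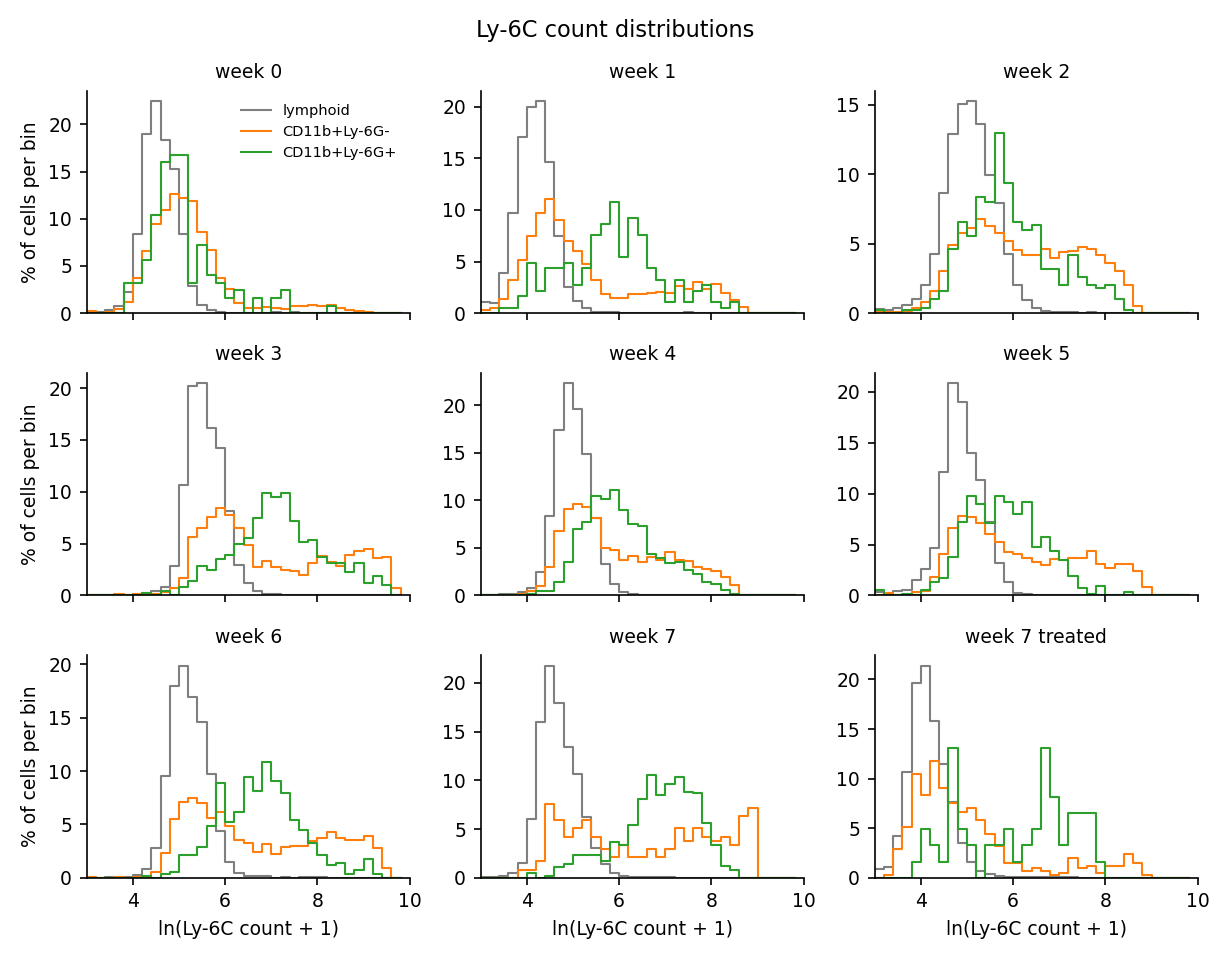
Distribution of the natural log of Ly-6C count plus 1 in lymphoid, CD11b+Ly-6G- and CD11b+Ly-6G+ cells of each library, as percent of the cells per bin. Lymphoid cells form a single narrow peak that shifts between libraries. CD11b+Ly-6G- cells have a low part just above it and a broad high part. The high part is small at week 0 (7.82% of cells in the upper component of the mixture). CD11b+Ly-6G+ cells lie between these parts in most libraries, though not at week 0.

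Among CD11b+Ly-6G- cells, Ly-6C was lower where CD11c was present. Ly-6C enters the cell's mean used for gating, so a high Ly-6C count lowers the cell's CD11c and CD64 values there. Such a cell is thereby more readily called CD11c- or CD64-. The ratio of the median count in CD11c+ to that in CD11c- cells was 0.0966 at its lowest, 0.183 in the middle and 0.715 at its highest over the 8 untreated libraries. CD11c+ cells were lower in all 8 (mean difference -1.54 ± 0.684 on the natural log of counts; exact sign-flip permutation p = 0.00781, adjusted p = 0.0739). On the planned scale, a log ratio that leaves CD11c out of the cell's mean, the difference was -1.22 ± 0.848 (lower in 7 of 8; exact sign-flip permutation p = 0.0156, adjusted p = 0.0478). The adjusted p passed 0.05 without the week 0 library (0.0449) and missed it without any of the other 7 libraries (0.0513 to 0.0759). It also missed 0.05 with Ly-6C left out of the mean used for gating (0.0508), with thresholds fitted in each library or lowered by 0.25 (0.0553 each), with the top 5% by total removed (0.0508) and after thinning (0.0677).

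Cells with CD64 carried more Ly-6C than cells without it in 7 of 8 libraries, with a ratio of median counts from 0.833 to 13.3 (middle 2.25). The exception was week 6, where CD11b+CD11c-CD64- cells were high. The mean difference was 0.986 ± 0.804 on the natural log of counts (exact sign-flip permutation p = 0.0156, adjusted p = 0.0739) and 0.571 ± 0.704 on the planned scale (adjusted p = 0.0564), so it missed the threshold on both.

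The CD64+CD11c- cells, part of the phenotype of monocytes and macrophages, had the highest Ly-6C of the 4 combinations in 7 of 8 untreated libraries. Their ratios to the lymphoid median were 2.16, 4.25, 10.2, 17.6, 9.41, 11.3, 15.5 and 30.9 over weeks 0 to 7. Those of CD64+CD11c+ cells were 1.93, 1.91, 1.87, 1.70, 1.61, 2.46, 1.72 and 4.88. From week 2 to week 7, 80.5% to 95.5% of CD64+CD11c- cells lay above the lymphoid 99th percentile, against 22.7% to 64.8% of CD64+CD11c+ cells. The week 7 values rest on 89 and 71 cells, and the change of these ratios with week was not tested.

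**Figure D4:**
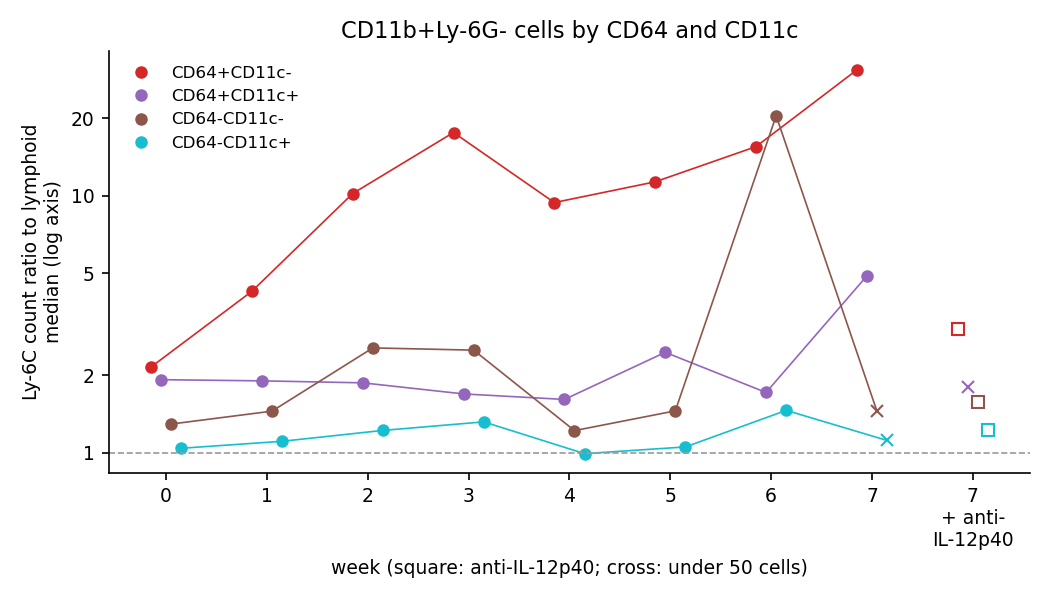
Ratio of the median Ly-6C count to the lymphoid median (log axis) against week for CD11b+Ly-6G- cells divided by CD64 and CD11c. Circles are untreated libraries, squares the treated library and crosses values from under 50 cells. CD64+CD11c- cells lie between 2.16 and 30.9, CD64-CD11c+ cells lie near 1, and CD64-CD11c- cells lie above CD64+CD11c- cells at week 6 alone.

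From cell to cell within CD11b+Ly-6G- cells, the rank correlation of Ly-6C with CD64 was 0.108 to 0.651 over the 9 libraries and with CD11b 0.268 to 0.592. With CD11c it was -0.42 to 0.0912. These cells share depth and library, so the correlations are a description. Over the 83 groups of library and phenotype, the antibodies whose median was most like that of Ly-6C on the centred log ratio were Ly-6G (Spearman's rho 0.312), CD11b (0.285) and CD64 (0.238), all weak, and CD4 was least alike (-0.36). On raw counts the same 3 came first (0.725, 0.708 and 0.685) and CD90.2 last (-0.35). All of these proteins define the groups.

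Splits of T cells and innate lymphoid cells by KLRG1, CD103 or CD127 gave small differences. On raw counts the median ratio between positive and negative cells lay between 0.969 and 0.996 for the 6 splits. The planned test called 5 of 8 Ly-6C splits, against 65.4% of the 26 splits of the 4 antibodies outside the gates, and 4 of the 5 were lymphoid. KLRG1+ CD3+CD4+ cells were 0.137 ± 0.0441 above KLRG1- cells (higher in 6 of 6; exact sign-flip permutation p = 0.0312, adjusted p = 0.0478), but on raw counts the difference was -0.024 and they were higher in 1 of 6. CD127+ cells were 0.0329 ± 0.0351 higher among CD3+CD4+ and 0.111 ± 0.0611 higher among CD3-CD4-CD90.2+ cells (adjusted p = 0.0478 for each exact test), and lower by means of -0.016 and -0.019 on raw counts. CD103+ CD3-CD4-CD90.2+ cells differed by -0.086 ± 0.0583 (adjusted p = 0.0478, exact) and by -0.034 on raw counts. Per 1000 counts of the cell (log2) the CD103 split of CD3-CD4-CD90.2+ cells turned to 0.21 and the CD127 split of CD3+CD4+ cells to -0.13, and both passed in that direction (adjusted p = 0.0451 for each exact test). With Ly-6C left out of the mean used for gating 0 of the 8 splits passed. On raw counts 0 of the 8 splits passed the adjusted threshold of the exact sign-flip test (0% of 26 called), and 3 had an unadjusted p below 0.05.

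The next comparison asked whether Ly-6C relative to lymphoid cells changed over the weeks after transfer. CD11b+Ly-6G+ cells rose on the centred log ratio, from -0.70 at week 0 to 1.25 at week 7, through -0.31, 0.17, 0.34, 0.56, 0.37 and 0.79. The rank correlation with week was 0.976 (exact permutation p = 0.000397, adjusted p = 0.0159; Pearson's r was 0.954 with an exact permutation p of 0.000198, or 0.00794 after adjustment), and without weeks 0 and 7 r was 0.902 (exact p = 0.0111). It was the only 1 of 10 Ly-6C offsets called, against 2.5% of 40 over the 4 antibodies outside the gates. With Ly-6C left out of the mean used for gating, 4 were called. On raw counts the rank correlation was 0.476 (exact permutation p = 0.243, adjusted p = 0.382; Pearson's r was 0.591, exact p = 0.119), and without weeks 0 and 7 r was -0.11. There, 0 of 10 Ly-6C offsets passed (0% of 40 called) and 2 had an unadjusted exact permutation p below 0.05. The median CD90.2 count of these cells, which enters the cell's mean, was 260, 130, 40, 124, 29, 50, 86 and 75 over weeks 0 to 7, and its part in the trend was not tested. Without CD90.2+ cells the adjusted p was 0.0675, and it also missed 0.05 without week 0 (0.09), week 1 (0.111), week 2 (0.0556), week 3 (0.111) or week 7 (0.111). The lymphoid reference changed in its mix of cells between weeks 1 and 2. No Ly-6C offset passed with CD3+CD4+ cells, CD3-CD4-CD90.2+ cells or the mean of both medians as the reference. The first and last of these leave out week 0, which had 1 CD3+CD4+ cell.

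The share of cells above the lymphoid 99th percentile of their own library was the second measure over time. Among CD11b+Ly-6G- cells this share, on raw counts, was 24.6%, 38.3%, 45.6%, 48.8%, 43.4%, 49.7%, 51.8% and 60.8% over weeks 0 to 7, with 95% Clopper-Pearson intervals of 23.3 to 25.8 in the first and 54.2 to 67.0 in the last (counting error only). Week 0 was the lowest and week 7 the highest. The rank correlation with week was 0.929 (exact permutation p = 0.00223, adjusted p = 0.0625; Pearson's r was 0.896 with an exact permutation p of 0.000942, or 0.0264 after adjustment), and without weeks 0 and 7 r was 0.808 (exact p = 0.0528). None of 7 shares passed the adjusted threshold for the rank correlation on raw counts (0% of 28 called), and 3 had an unadjusted exact permutation p below 0.05.

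On the centred log ratio 2 of 7 Ly-6C shares passed, against 11.1% of 27 over the 4 antibodies outside the gates. The share in CD11b+Ly-6G- cells was 6.19% at week 0 and 56.5% at week 7 (rank correlation with week 0.929, exact permutation p = 0.00223, adjusted p = 0.0301; Pearson's r was 0.876 with an exact permutation p of 0.000496, or 0.00804 after adjustment; r without weeks 0 and 7 of 0.794, exact p = 0.0278). That in CD11b+Ly-6G+ cells went from 1.60% to 71.3% (rank correlation 0.905, exact permutation p = 0.00456, adjusted p = 0.0411; Pearson's r was 0.898 with an exact permutation p of 0.00193, or 0.0144 after adjustment). Without weeks 0 and 7 the latter had r = 0.778 (exact p = 0.0722, 6 libraries). On raw counts it did not follow week (19.2%, 73.5%, 31.1%, 71.8%, 49.8%, 43.4%, 70.2% and 88.1% over weeks 0 to 7; rank correlation 0.476, exact permutation p = 0.243; Pearson's r was 0.589, exact p = 0.127). Leaving out week 0, 1, 2, 4, 6 or 7 ended both calls (adjusted p of 0.0554 to 0.161).

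In CD11b+CD64+ cells the raw share was 32.7% at week 0, then 46.1%, 50.4%, 52.5%, 47.2%, 65.1%, 50.8% and 81.9% (rank correlation 0.833, exact permutation p = 0.0154, adjusted p = 0.144; Pearson's r was 0.814 with an exact permutation p of 0.00893, or 0.0488 after adjustment; r without weeks 0 and 7 of 0.487, exact p = 0.367). In CD11b-CD11c+CD64- cells it lay between 2.41% and 17.4% (rank correlation 0.905, exact permutation p = 0.00456, adjusted p = 0.0639; Pearson's r was 0.806 with an exact permutation p of 0.0105, or 0.0488 after adjustment; r without weeks 0 and 7 of 0.596, exact p = 0.2). Both correlations were smaller without the end weeks.

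**Figure D5:**
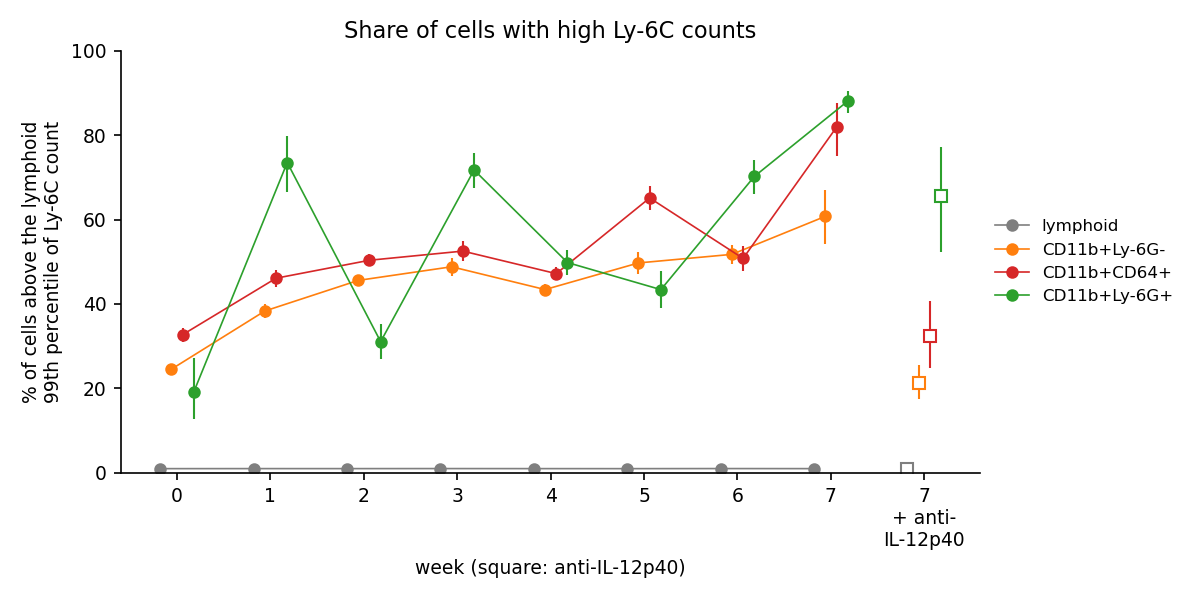
Percent of cells with a Ly-6C count above the 99th percentile of the library's lymphoid cells, against week, with Clopper-Pearson 95% intervals for counting error only. Circles are untreated libraries and squares the treated library. CD11b+Ly-6G- cells go from 24.6% at week 0 to 60.8% at week 7 and stand at 21.3% with treatment, and CD11b+Ly-6G+ cells vary from 19.2% to 88.1% without an order.

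Of all cells, 8.21% to 17.8% of an untreated library lay above that threshold. Leaving aside lymphoid cells, whose share the threshold fixes, the high cells of week 0 were 87.6% CD11b+Ly-6G- and 1.80% CD11b+Ly-6G+, and those of week 7 were 16.5% and 65.1%. The CD11b+Ly-6G- phenotype itself shrank from 4748 cells to 237 and CD11b+Ly-6G+ grew from 125 to 645 between these libraries. Cells in no phenotype held 1.71% to 13.5% of the high cells of an untreated library.

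The last comparison set the anti-IL-12p40 library against the untreated library of week 7. It is 1 pool against 1, so no test was made, and a difference was called large where it reached 1.5-fold and the treated value lay outside the untreated range of weeks 5 to 7. CD11b+CD64+ cells had a median of 166 counts with treatment (145 cells) and 1734 without (160 cells), over lymphoid medians of 60 and 102. The ratio to lymphoid cells was 2.77 (95% interval 2.32 to 3.27) with treatment and 17 (13.8 to 22.7) without, a difference of -1.82 on the natural log of counts and -1.74 on the centred log ratio. The untreated week 6 library, at 3.13 (2.76 to 3.76), lay much nearer to the treated value than to week 7, and weeks 0, 1 and 4 at 2.04, 2.59 and 2.38 lay below it. Above the lymphoid 99th percentile were 32.4% (24.9 to 40.7) of the treated and 81.9% (75 to 87.5) of the untreated CD11b+CD64+ cells, against 65.1% and 50.8% at weeks 5 and 6. CD11b+CD64+ cells were not large by this rule when each cell's Ly-6C was taken per 1000 counts (-0.59, log2) or after thinning to 200 counts per cell (-1.25, centred log ratio).

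CD11b+Ly-6G- cells as a whole differed in the same direction, with 21.3% (17.4 to 25.6) high cells in the treated and 60.8% (54.2 to 67.0) in the untreated library. Within them, CD64+CD11c- cells had a ratio of 3.03 with treatment (117 cells) and 30.9 without (89 cells). CD11b+Ly-6G+ cells had medians of 654 counts with treatment (61 cells) and 1061 without (645 cells), and ratios of 10.9 (4.53 to 13.6) and 10.4 (9.72 to 11.3). The intervals overlap widely, and the high share was 65.6% (52.3 to 77.3) against 88.1% (85.3 to 90.5). Per 1000 counts of the cell, CD11b+Ly-6G- cells were not large (-0.61, log2), nor were they with the top 5% of cells by total removed (-0.44, centred log ratio), while per 1000 counts CD11b+Ly-6G+ cells were higher in the treated library (0.75, log2). With thresholds fitted in each library CD11b+Ly-6G+ cells were lower in it by the size rule (-0.65, centred log ratio), so their direction depends on the setting. CD3+CD4+ and CD3-CD4-CD90.2+ cells stood at 1.02 and 0.967 with treatment and at 1.00 and 0.951 without.

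By the size rule 2 of 7 phenotypes differed in Ly-6C, CD11b+CD64+ and CD11b+Ly-6G-, the latter containing the former. Over the 4 antibodies outside the gates 17.9% of 28 comparisons were large on the centred log ratio and 14.3% on raw counts. The treated library also had the lowest lymphoid Ly-6C level and the highest median count per cell of the 9, and whether these bear on the difference was not tested. Treatment and pool cannot be told apart.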

How the data were processed

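Per the labels' protocols, cells of the lamina propria carried tagged antibodies when they were sorted and put on a droplet instrument. The authors deposited unnormalized whole-number counts per barcode and antibody. Cell Ranger (6.0.2), Seurat (4.1.1) and the build mm10 are listed in the submitters' processing notes, with no role stated. The rule that selected barcodes was not given in the sources used here.

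Barcodes under 50 counts and the highest 1% by total in each library were removed. No doublet caller was run, so doublets remain. The centred log ratio is ln(count + 1) less its mean over the 11 antibodies of the cell. Gate thresholds came from 2-component Gaussian mixtures on 2000 cells per library, fitted once over all libraries. Each library gave 1 median per phenotype. Tests were exact two-sided sign-flip permutations over libraries and exact permutations of week order (40320 for 8 libraries), with Benjamini-Hochberg adjustment at 0.05 over the 4 antibodies that define no gate. Phenotypes needed 50 cells in at least 6 libraries. P-values measure the spread between pools of different weeks. Intervals cover counting error only. The other 55 samples were not analysed here.

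Ly-6C is named in every phenotype, CD11b, CD11c, CD64 and Ly-6G for their background, and the 3 most like and 1 least like antibodies by rank correlation. The antibody, phenotypes and tests were chosen with earlier results of these data known. The unions by CD64 and CD11c, the mixture within CD11b+Ly-6G- cells and the composition of high cells are descriptions added after values were seen. The steps were run on simulated Ly-6C counts, and recovery of the set offsets and trends was required on raw counts alone. The centred log ratio had no such requirement. That run had no count filter and left Ly-6C out of the mean used for gating, unlike the main run. Alternatives were raw counts, counts per 1000, other gates, filters, references and thresholds, thinning to 200 counts, and leaving out each library. Gene positions are from the GENCODE annotation of GRCm38.p6. Software was Python 3.11.15 with pandas 2.3.3, numpy 2.4.6, scikit-learn 1.9.0, scipy 1.17.1 and matplotlib 3.10.9.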

Additional observations from a re-analysis of the deposited data

How the results depend on the processing

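Counts of Ly-6C results past the threshold moved with most settings. Exact sign-flip tests over 8 libraries take few p-values. Level pairs called were 12 as planned, 0 on raw counts (with or without CD90.2+ cells in the myeloid phenotypes), 24 per 1000 counts, 24 after thinning and 6 with thresholds fitted in each library. Offsets following week were 1 as planned. They were 0 on raw counts (with or without CD90.2+ cells), without CD90.2+ cells, and with each of the other 3 lymphoid references. They were 2 with thresholds raised or lowered by 0.25, 3 with a minimum of 100 counts, fitted thresholds, thinning or the top 5% removed, and 4 per 1000 counts, without filters or with gates that leave out Ly-6C. High shares following week were 2 as planned, 0 on raw counts and with each of the other 3 references, 1 on raw counts without CD90.2+ cells, and 4 per 1000 counts, with the 95th percentile or with lowered thresholds. Splits called were 5 as planned and 0 on raw counts, with gates that leave out Ly-6C, after thinning, with fitted or lowered thresholds and with the top 5% removed. Large treated differences were 2 as planned, 3 with fitted thresholds (CD11b+Ly-6G+ cells among them, at -0.65) and 1 after thinning or with the top 5% removed. Per 1000 counts there was 1, in CD11b+Ly-6G+ cells, which were higher with treatment, and neither of the 2 planned differences was large. Leaving out 1 library gave 0 to 7 pairs, 0 to 1 offsets, 0 to 3 high shares and 0 to 5 splits. With 7 libraries or fewer, the smallest exact sign-flip p is larger.

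The following values turned in direction, and the cause was not tested. On raw counts the rank correlation of the level with week became 0.0357 in CD3+CD4+, 0.333 in CD3-CD4-CD90.2+ and 0.333 in all lymphoid cells. The difference from lymphoid cells became 0.0248 in CD3-CD4+CD90.2+ and -0.0019 in CD3-CD4-CD90.2+ cells, and the CD3+CD4+ offset trend -0.37. The CD127 split became -0.016 in CD3+CD4+ and -0.019 in CD3-CD4-CD90.2+ cells, and the KLRG1 split of CD3+CD4+ cells -0.024. Per 1000 counts (log2) the CD3-CD4-CD90.2+ level trend became 0.357, its CD103, CD127 and KLRG1 splits 0.21, -0.0020 and 0.0916, the CD127 split of CD3+CD4+ cells -0.13, and the treated difference of CD11b+Ly-6G+ cells 0.75. Of these, the CD103 split and the CD127 split of CD3+CD4+ cells were called in both directions (adjusted exact p = 0.0451 per 1000 counts). After thinning the CD3-CD4-CD90.2+ level trend became 0.19 and its CD103 and KLRG1 splits 0.0145 and 0.0098. With the mean of the background antibodies as the reference in the cell these splits became 0.0499 and 0.0826, the latter past the threshold (adjusted exact p = 0.0433).

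With CD3+CD4+ cells as the reference the offset trends became -0.49 in CD11b+CD11c+CD64-, -0.43 in CD11b-CD11c+CD64-, -0.37 in CD11b-CD64+, -0.46 in CD3-CD4+CD90.2+ and -0.32 in CD3-CD4-CD90.2+ cells, the high share trend of CD11b-CD64+ cells -0.26, and the CD3-CD4+CD90.2+ difference 0.0826. With CD3-CD4-CD90.2+ cells as the reference the differences became -0.30 in CD11b+CD11c+CD64-, -0.041 in CD11b+Ly-6G+, -0.14 in CD11b-CD11c+CD64- and -0.30 in CD11b-CD64+ cells, the first and the third past the threshold (adjusted exact p = 0.0287). The trends became -0.61 in CD11b+CD11c+CD64-, 0 in CD11b-CD11c+CD64-, -0.11 in CD11b-CD64+ and -0.76 in CD3-CD4+CD90.2+ cells. With the mean of both medians the differences became -0.053 in CD11b+CD11c+CD64- and -0.029 in CD11b-CD64+ cells, and the trends -0.60 in CD11b+CD11c+CD64-, -0.36 in CD11b-CD11c+CD64-, -0.37 in CD11b-CD64+, -0.54 in CD3-CD4+CD90.2+ and -0.32 in CD3-CD4-CD90.2+ cells.

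The CD11b+CD11c+CD64- difference became -0.0043 with gates that leave out Ly-6C, -0.051 with raised thresholds and -0.030 without week 4 (-0.030 to 0.0687 over libraries left out). The CD11b-CD64+ difference became -0.021 with those gates, -0.034 with fitted thresholds, -0.30 with raised thresholds, -0.014 with the top 5% removed and -0.065 without week 5. The CD3-CD4-CD90.2+ level trend became 0.321 with fitted thresholds and 0.25 without week 7 (-0.50 to 0.25 over libraries left out). No pairing between groups of samples was possible because each group holds 1 library, so groups share fewer than 2 replicate numbers. The tests between phenotypes and the splits were paired within library. Limits are 1 pool per group and few cells: 145 CD11b+CD64+ and 61 CD11b+Ly-6G+ cells carry the treated values.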
